A study of Mus musculus with 59 samples.

Results

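The regions described here are constitutive bivalent H3K4me3 peaks of mouse brainstem tumours. H3K4me3 peaks of 5 tumours were merged over the autosomes where they shared 1 bp. A member is a merged region called in all 5 tumours that overlapped, in each of the 5, an H3K27me3 island of the same tumour by at least 1 bp. The members were thus chosen by H3K4me3 calls and H3K27me3 islands in these 5 tumours, and the presence of either mark in them is not a finding. The rule gave 3189 members of 40273 merged regions (7.92%), or 16.4% of the 19448 regions called in all 5 tumours. Of the other constant regions, 11774 overlapped an island in none of the 5 tumours and are the comparison class below. The remaining 4485 overlapped one in 1 to 4 tumours.

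The series set mice with a tagged H3f3a allele carrying K27M against mice with the same tagged allele unchanged (WT), by chromatin immunoprecipitation and sequencing. K27M tumours (BT-1 to BT-6, 4 male and 2 female) carried Nestin-creERT2, H3f3aLSL-K27M-Tag/+, LSL-PDGFRαV544ins and Trp53flox/flox. WT tumours (BT-7 to BT-11, 1 male and 4 female) carried Nestin-creERT2, H3f3aLSL-WT-Tag/+, LSL-PDGFRαV544ins and Trp53flox/flox. All tumours therefore shared the mutant PDGFRα allele, the floxed Trp53 alleles and a Cre driven by Nestin regulatory sequence, which is active in neural precursors. H3K27me3 and H3K27ac were profiled in all 11 tumours, and H3K4me3 in BT-2 and BT-6 (K27M) and in BT-7, BT-9 and BT-10 (WT), which are the 5 tumours of the rule. H3K27me3 was also profiled in neurospheres, floating cultures of neural precursors, from e15.5 embryos. These were 3 forebrain K27M, 3 hindbrain K27M and 3 hindbrain WT libraries, all carrying Nestin-cre with H3f3aLSL-K27M-Tag/+ or H3f3aLSL-WT-Tag/+ and the labels name neither the PDGFRα nor the Trp53 allele for them. All neurosphere libraries were labelled female except the WT library of experiment 3, which was labelled male. Whether samples of 1 group are from different mice is not in the labels. The p-values below therefore cover only sample-to-sample spread, which may be technical.

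H3K4me3 marks promoters, and H3K27me3 is the repressive mark that Polycomb repressive complex 2 lays down in broad domains. Promoters with both marks are called bivalent and are best known at developmental regulators in embryonic stem cells, where they are held silent or low and can later be activated or stably silenced. H3K27ac, the acetylated form of the same lysine that carries H3K27me3, marks active promoters and enhancers. H3 K27M inhibits Polycomb repressive complex 2, and cells that carry it lose much of their H3K27me3 while some sites keep it. The marks were profiled one at a time in bulk chromatin. Both marks on the same nucleosome, and each mark in other cells or on the other allele of 1 tumour, cannot be told apart, nor can fewer marked cells and less mark per cell.

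Reads inside H3K27me3 islands numbered 3208588 to 16323822 for each library over all chromosomes. Over the autosomes, which are used below, they ran from 1878972 in BT-11, the lowest, to 14400936 in BT-10. Peaks numbered 36284 to 61251 in H3K27ac and 28480 to 34291 in H3K4me3 lists. An island or peak is a stretch that the authors' caller marked as enriched, so presence or absence depends on each library's depth and background, and sequencing depth is unknown. Sex was unevenly spread over the tumour genotypes, and values with genotypes compared within sex are given where they change a call. Coordinates count from 1 on mm9, the mouse build of the deposited lists. No gene names are given because the annotation at hand was of another build.

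The members were scattered over the genome, and most stood alone. Their share of the regions called in all 5 tumours was between 12.8% (chromosome 16) and 19.5% (chromosome 13). Grouped into chains of members under 1 merged island, the 3189 members made 2559 loci. Of these loci, 2127 held a single member and 20 held 5 or more. The locus with most members, 7, lay at chr15:102558401-102983200. Loci with 6 members lay at chr1:74874001-75013000, chr6:52072801-52284200, chr7:86628801-86794800, chr11:94953601-95119600 and chr11:118892801-118938200. In the chromosome 1 and chromosome 6 loci all 6 members had an island in all 9 neurosphere libraries, whereas none of the 6 members of the chromosome 7 locus did. In 4 of those 6 chromosome 7 members H3K27ac was present in all 11 tumours, against none of the 6 in the chromosome 1 locus. Loci with equal numbers of bivalent peaks thus differed in both readouts that the rule had not used.

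Most members lay well inside an island, which the rule did not require. In 2371 members (74.3%) the whole merged region was under an island in each of the 5 tumours, and in 243 members under 50% of it was covered in at least 1 tumour. The member nearest the edge of the rule, chr5:92706386-92707608, was overlapped by 15 bp in its least covered tumour. The nearest region outside, chr1:153097662-153098387, had islands in 4 of the 5 tumours and missed the island of BT-7 by 13 bp. In all, 928 regions called in all 5 tumours had an island in 4 of the 5. The missing island was that of BT-6 in 315 of them and that of BT-7 in 304.

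Members were narrower than the comparison class. The merged H3K4me3 region had a median width of 1.46 kb (interquartile range 1.02 to 2.246 kb) in members and 1.93 kb (1.22 to 2.71 kb) in the comparison class. Regions with an island in 1 to 4 of the 5 tumours were close to members, at 1.53 kb (0.904 to 2.46 kb), so narrow width was not particular to members. Within single tumours, the median H3K4me3 length per member was 1259 bp in BT-2, 1225 bp in BT-6, 1197 bp in BT-7, 1061 bp in BT-9 and 1259 bp in BT-10. The comparison class ran from 1617 to 1736 bp over the same tumours, above the members in every one. The median member ranked at percentile 54.4 to 61.2 of its tumour's peaks, against 72.3 to 77.9 for the comparison class, by the authors' own peak values. Both classes were chosen with H3K4me3 calls, and these widths are given as a description without a test. H3K4me3 length per member was 1242 bp ± 24.0 (SD, n = 2) in K27M tumours and 1172 bp ± 101.3 (SD, n = 3) in WT tumours. The groups overlapped, and the difference of 69.7 bp was 14.0 bp without BT-9 and 113 bp without BT-10. It was not tested, since the rule used these calls.

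**Figure D1:**
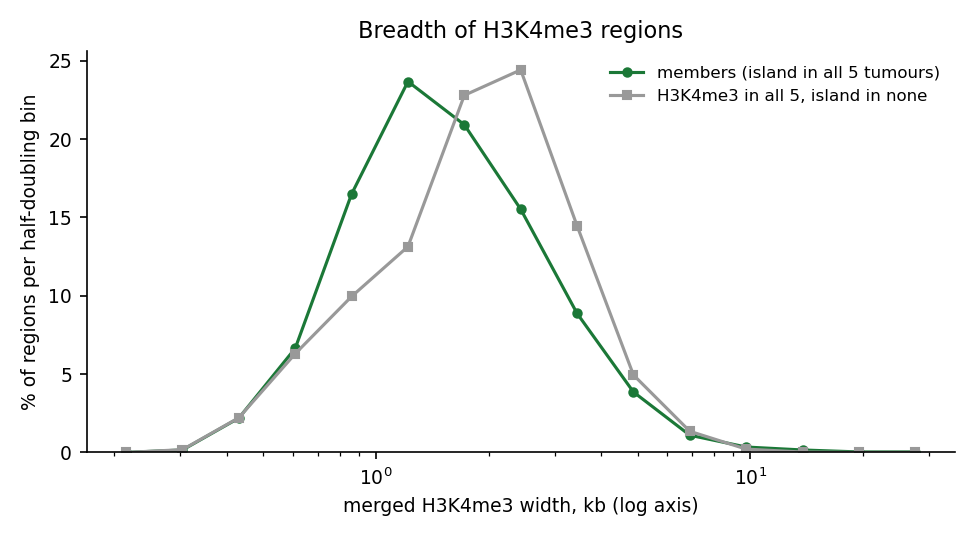
Distribution of merged H3K4me3 width in kb (log axis) for members and for regions with H3K4me3 in all 5 tumours and an island in none, as the percent of each class per bin, with bins evenly spaced on the log axis. The members peak at a smaller width (median 1.46 kb) than the comparison class (median 1.93 kb), and the curves meet again above 5 kb.

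A minority of members was very broad, with 91 (2.85%) over 5 kb. The widest, chr13:83857506-83881698, spanned 24.2 kb, and its H3K4me3 length was 23.5 kb in BT-2, 23.6 kb in BT-6, 21.9 kb in BT-7, 21.9 kb in BT-9 and 24.1 kb in BT-10. The other 4 of the 5 widest were chr3:88008773-88026315 (17.5 kb), chr6:52106247-52119612 (13.4 kb), chr7:86643744-86657102 (13.4 kb) and chr7:123172299-123184817 (12.5 kb). All 5 had H3K27ac in all 11 tumours. Only the chromosome 6 member had neurosphere islands, which were present in all 9 libraries and 186.6 to 193.0 kb wide, while the other 4 had none. At the chromosome 13 member, islands covered 69.0% to 100% of the region in K27M tumours (median 100%) and 0% to 58.7% in WT tumours (median 21.9%). At the chromosome 3 member they covered 94.3% to 100% in K27M tumours and 0% to 84.5% in WT tumours. These broad peaks lay wholly or nearly wholly under an island in most K27M tumours, and less so in WT tumours. At the opposite end, the narrowest member, chr7:53435482-53435748, spanned 267 bp and was called in all 5 tumours. It had H3K27ac in no tumour and an island in all 6 tumours outside the rule and in all 9 neurosphere libraries.

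H3K27ac was far rarer at members than at comparison regions. An H3K27ac peak touched 47.4%, 49.0%, 37.9%, 37.3%, 36.4% and 50.5% of members in K27M tumours BT-1 to BT-6, and 45.8%, 36.3%, 32.8%, 55.5% and 48.4% in WT tumours BT-7 to BT-11. In the comparison class it touched 87.6% to 93.8% in K27M tumours and 85.7% to 94.5% in WT tumours. The ranges of the 2 classes over the 11 tumours did not overlap. The difference within tumours, members minus comparison class, was -46.9 percentage points ± 5.57 (SD, n = 11), in the same direction in 11 of 11 tumours. A two-sided exact permutation test by sign flips gave p = 0.000977, the smallest it can give. Among regions of 2000 to 5000 bp the difference was -26.0 points, smaller in size than over all widths.

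**Figure D2:**
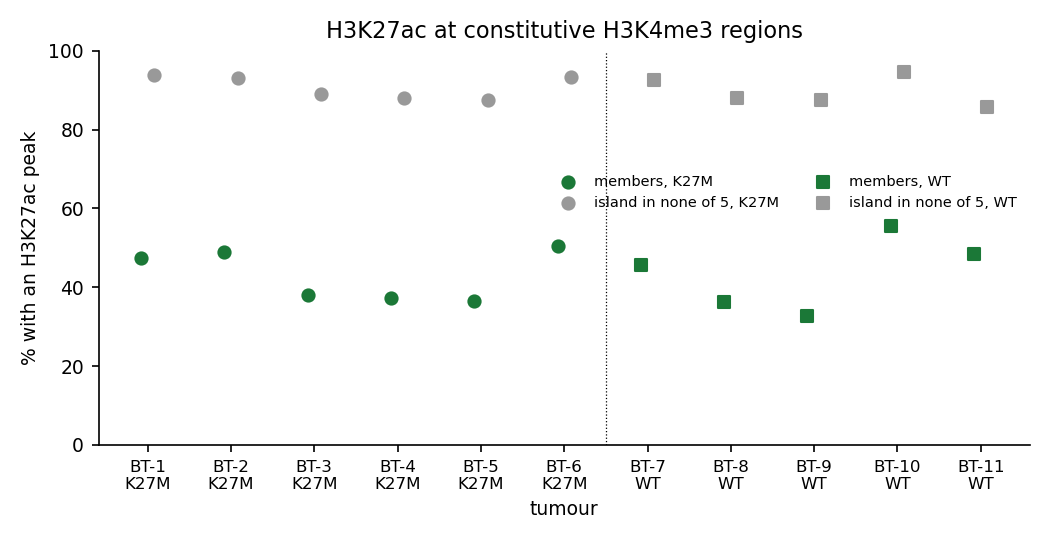
Percent of regions touched by an H3K27ac peak in each tumour, for members (green) and for constant H3K4me3 regions without an island in any of the 5 tumours of the rule (grey). Circles are K27M and squares are WT tumours. Members lie between 32.8% and 55.5% and the comparison class between 85.7% and 94.5%.

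The genotypes did not differ detectably in this share. H3K27ac touched 43.1% ± 6.55 of members in K27M tumours (SD, n = 6) and 43.8% ± 9.19 in WT tumours (SD, n = 5), with p = 0.887 in a two-sided exact permutation test. The difference between members and comparison class was -47.7 points ± 3.78 in K27M and -45.9 points ± 7.60 in WT tumours (SD, n = 6 and 5), and did not differ by genotype beyond the spread (exact permutation p = 0.608). Region by region, Fisher's exact test with Benjamini-Hochberg adjustment was run on 5344 merged regions, 577 of them members, and called none (0% of all regions tested). The smallest adjusted p from this exact test was 0.401. With 6 against 5 tumours the smallest unadjusted p that Fisher's exact test can give is 0.00216. A single region therefore could not pass the adjustment over 5344 regions, however well separated. At an unadjusted p under 0.05, 30 members passed (20 higher and 10 lower in K27M), which is 5.20% of the members tested against 3.78% of all regions tested.

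Full separation by genotype occurred at 3 members, all with H3K27ac in 6 of 6 K27M tumours and 0 of 5 WT tumours, and at none in the opposite direction. Over all 5344 regions tested, 17 (0.318%) were separated in this way and 0 in the opposite one, and the 3 members were 0.52% of the members tested. They lay at chr2:115681419-115682614, chr2:115684753-115686945 and chr6:5340049-5343009, and were singled out after their values were seen. At the second of these, H3K27ac covered 36.3% to 97.6% of the region in K27M tumours (median 83.7%), and it had an island in every tumour, 3.6 to 20.4 kb wide in K27M, against 3.40 to 14.8 kb wide in WT. Both chromosome 2 members had islands in all 6 hindbrain libraries and had none in the 3 forebrain libraries. None of the 3 passed the adjustment, which so few separated regions could not pass.

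Grouped by H3K27ac, members differed in width, in island cover and in neurosphere islands, which are given as a description. H3K27ac was absent in all 11 tumours at 887 members (27.8%), present in all 11 at 573 (18.0%) and present in 1 to 10 at 1729 (54.2%). In the comparison class it was absent in all tumours at 1.66% and present in all at 77.2%. Regions with an island in 1 to 4 of the 5 tumours lay between, at 8.87% and 47.1%. The median merged width was 2.75 kb in members with H3K27ac in all 11 tumours, 1.54 kb in the intermediate group and 0.995 kb in members without it. Of the 91 members over 5 kb, 68 (74.7%) had H3K27ac in all 11 tumours, against 11 of the 766 members under 1 kb (1.44%). A wider region has more room for any peak, which is not corrected for in these shares. Where a member had both an H3K27ac peak and an island in the same tumour, the marks shared at least 1 bp in 93.9% to 99.2% of cases per tumour. Islands covered most members whole in the tumours of the rule, so a high share follows largely from that cover. H3K27ac covered a median of 34.5% to 50.2% of the member when present.

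The rule needed only 1 bp of island, and the length of island over a member was not fixed by it. Islands covered 96.8% ± 3.17 of the summed length of members without H3K27ac in K27M tumours (SD, n = 6) and 96.8% ± 3.66 in WT tumours (SD, n = 5). For members with H3K27ac in all 11 tumours the covered share was 91.9%, 91.9%, 92.3%, 81.6%, 75.9% and 91.8% in K27M tumours BT-1 to BT-6. In WT tumours BT-7 to BT-11 it was 76.3%, 35.8%, 85.0%, 83.8% and 46.9%. WT tumours thus left more of the acetylated members outside islands on average, the groups overlapped, and the 2 WT tumours outside the rule, BT-8 and BT-11, were lowest. Acetylated minus unacetylated members gave -9.24 points ± 4.07 in K27M and -31.3 points ± 19.3 in WT tumours (SD, n = 6 and 5), a difference of 22.0 points between genotypes. These values include the 5 tumours in which the rule itself required an island, and are a description.

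The comparison of acetylated members was chosen after the data were seen. It was tested in the 6 tumours outside the rule, where the within-tumour difference between genotypes was 41.5 points. The 4 K27M and 2 WT tumours did not overlap, and p = 0.067 was the smallest that an exact permutation of 4 against 2 can give, so the threshold could not be passed. The covered share of acetylated members on its own differed there by 44.1 points, with the same exact permutation p. Over all tumours it was 87.6% ± 7.07 in K27M, against 65.6% ± 22.7 in WT tumours (SD, n = 6 and 5), and that difference of 22.0 points was 14.6 points without BT-8. Among members of 2000 to 5000 bp, where 374 were acetylated in all tumours and 42 in none, acetylated minus unacetylated members differed by 19.3 points between genotypes over all tumours.

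**Figure D3:**
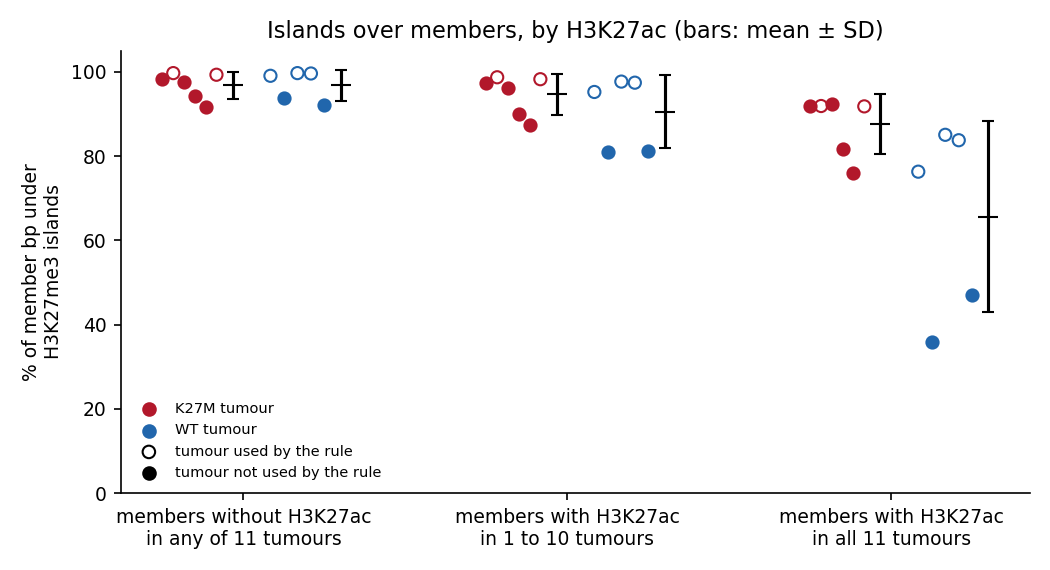
Percent of the summed length of members under H3K27me3 islands in each tumour, for members without H3K27ac in any tumour, with H3K27ac in 1 to 10 and in all 11 tumours. K27M tumours are red and WT tumours blue, open circles are the 5 tumours of the rule, and bars are mean ± SD. In the right-hand group WT tumours spread from 35.8% to 85.0% and K27M tumours from 75.9% to 92.3%, whereas both genotypes lie above 91% in the left-hand group.

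Most members also had an H3K27me3 island in the 6 tumours that the rule had not used, where H3K4me3 was not profiled. An island overlapped 98.7%, 98.6%, 91.0% and 88.7% of members in K27M tumours BT-1, BT-3, BT-4 and BT-5, and 80.5% and 83.4% in WT tumours BT-8 and BT-11. In the comparison class the same 6 tumours had islands at 0.170% to 9.50% of regions. All 4 K27M values lay above both WT values, by 12.3 points on average. A two-sided exact permutation over tumours gave p = 0.133, and 4 against 2 tumours cannot give less than 0.067. Islands were present in all 6 of these tumours at 2090 members (65.5%). This share was 81.2% of members without H3K27ac and 32.6% of members with H3K27ac in all 11 tumours. A single member, chr7:90698040-90698826, had an island in none of the 6.

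Islands around members overlapped in width between tumour genotypes, and were narrower in each K27M than in each WT hindbrain library. The median island over a member was 11.6, 14.2, 10.2, 11.8, 7.40 and 11.6 kb wide in K27M tumours BT-1 to BT-6 and 9.80, 8.80, 12, 14.4 and 5.80 kb in WT tumours BT-7 to BT-11. The groups overlapped, with a log2 difference of 0.17 that turned to -0.016 without BT-11. In the 6 tumours outside the rule it was 0.50, a 1.41-fold ratio (exact permutation p = 0.2). The median over all autosomal islands was 3.6 to 6.60 kb in K27M, against 3.20 to 6.40 kb in WT tumours, below that over members in every tumour. A wide island has more room for a peak, and this was not corrected for. In hindbrain neurospheres the median island over a member was 6.20, 5.80 and 6.80 kb wide in K27M and 10.4, 10.8 and 13.2 kb in WT libraries. The groups did not overlap, the ratio was 0.548-fold, and p = 0.1 was the smallest that an exact permutation of 3 against 3 can give. Over all autosomal islands the hindbrain medians were also lower in K27M, at 3.6, 3.8 and 4.4 kb, against 6.2, 6.4 and 6.4 kb in WT libraries. Narrower islands were thus not particular to members. Hindbrain minus tumours, the log2 differences over members were -1.36 apart with the 6 tumours outside the rule (exact permutation within each system, 300 arrangements, p = 0.01) and -1.04 apart with all 11. That permutation assumes no genotype effect in either system, so it cannot show that the effects differed.

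The members under the widest islands lay together on chromosome 15. The first 3 of the 5, chr15:102829034-102830391, chr15:102844185-102845835 and chr15:102864397-102866798, lay under islands of the same widths, between 169.6 and 301.2 kb wide in K27M and between 160.4 and 257.0 kb wide in WT. H3K27ac touched them in 1, 3 and 4 of 11 tumours, and all had islands in all 9 neurosphere libraries. The other 2, chr15:102976889-102978318 and chr15:102916125-102917121, had islands of up to 301.2 kb in K27M and up to 69.8 kb in WT tumours.

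Members had hindbrain islands in K27M cells more often than other stretches that were marked in the tumours. An island overlapped 60.6%, 56.3% and 56.2% of members in K27M hindbrain libraries of experiments 1, 2 and 3, and 74.7%, 77.5% and 81.7% in WT hindbrain libraries of the same experiments. As a yardstick, 6839 stretches lay under an island in all 5 tumours of the rule and held no H3K4me3 peak of any of them. Their median width was 3.6 kb. Tumour islands that held a member had a mean median width of 9.87 kb in K27M and 9.16 kb in WT tumours. Tumour islands without a member came to 4.83 and 4.84 kb. The stretches were not matched to members for island width or read density. Of these stretches, 20.2%, 15.9% and 18.0% had an island in K27M hindbrain libraries and 56.2%, 60.5% and 67.8% in WT hindbrain libraries. Members minus stretches came to 39.7 points ± 1.31 in K27M and 16.5 points ± 2.34 in WT libraries (SD, n = 3 each). This gap was 23.2 points larger in K27M, the groups did not overlap, and p = 0.1 was the smallest that an exact permutation of 3 against 3 allows.

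**Figure D4:**
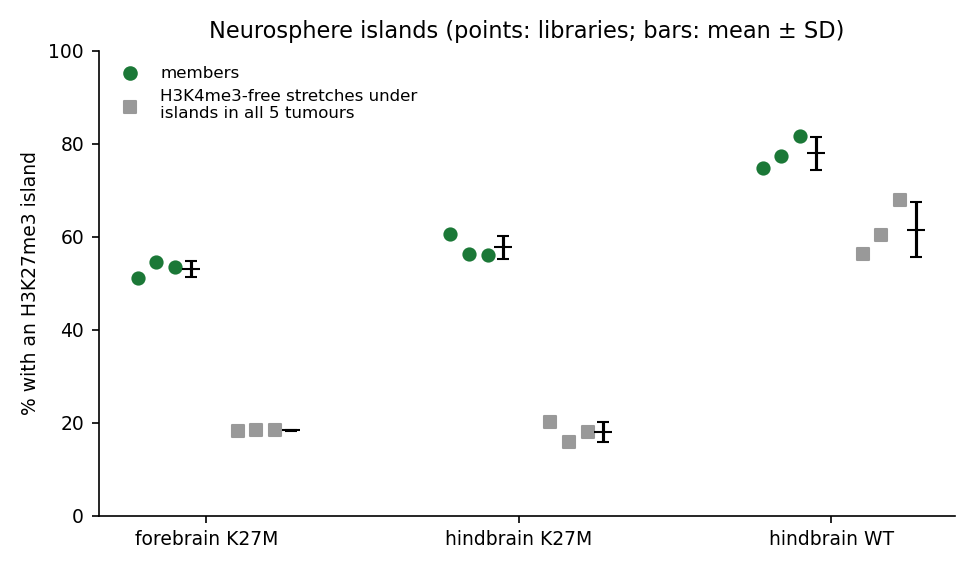
Percent of members (green circles) and of H3K4me3-free stretches under islands in all 5 tumours (grey squares) with an H3K27me3 island in each neurosphere library, with mean ± SD. Members average 57.7% in K27M and 78.0% in WT hindbrain cells, and the stretches 18.1% in K27M and 61.5% in WT hindbrain cells.

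The island lists of K27M hindbrain libraries were much shorter, with 6020 to 7614 autosomal islands against 16008 to 19476 in WT. With equally many top-ranked islands from every library, members had an island in 56.2% ± 1.21 in K27M, against 60.1% ± 2.65 in WT libraries (SD, n = 3 each), and their difference of -20.2 points became -3.87. The stretches without H3K4me3 came to 17.0% ± 0.994 in K27M, against 40.9% ± 3.21 in WT libraries (SD, n = 3 each). The gap between the classes was then 20.0 points larger in K27M, close to that with the full lists. At equal list length the difference between genotypes was therefore mostly in the stretches and not in the members.

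Counted over libraries, 1369 members (42.9%) had an island in all 9 neurosphere libraries and 457 (14.3%) in none. An island in all 3 WT hindbrain libraries was present at 2263 members, and 1605 of these (70.9%) also had one in all 3 K27M hindbrain libraries. At 336 members (10.5%) the 3 WT hindbrain libraries all had an island and no K27M hindbrain library did. Their median merged width was 1.21 kb, against 1.55 kb for the 1605 with islands in both. The shorter K27M lists favour this pattern in any set of regions, and its share over other regions was not counted. The opposite pattern occurred once, at chr7:86687213-86690204, where islands of 3.4, 2.6 and 5.0 kb lay over the member in K27M libraries. This member had H3K27ac in all 11 tumours and belonged to the 6-member locus on chromosome 7 described above.

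The state of a member in tumours went with its state in neurospheres. Of members without H3K27ac in tumours, 52.6% had an island in all 9 neurosphere libraries and 6.88% in none. Of members with H3K27ac in all 11 tumours, 29.3% had one in all 9 and 29.8% in none. Within hindbrain libraries, members with H3K27ac in all 11 tumours had an island in 46.8%, 44.0% and 44.5% of cases in K27M and in 55.7%, 59.3% and 62.7% in WT. Members without it had one in 68.0%, 63.4% and 62.7% in K27M and in 86.4%, 88.2% and 90.9% in WT. Unacetylated minus acetylated members gave 24.4 points ± 5.44 (SD, n = 6 libraries), in the same direction in 6 of 6. Two-sided exact permutation by sign flips gave p = 0.03125, the smallest it can give. Among members of 2000 to 5000 bp the difference was 44.0 points, but only 42 of these were unacetylated, against 374 acetylated in all 11 tumours. The contrast was added once values were known.

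Forebrain K27M cells had islands at a slightly lower share of members than hindbrain K27M cells. An island overlapped 51.2%, 54.6% and 53.4% of members in forebrain K27M libraries, set against the 60.6%, 56.3% and 56.2% in hindbrain K27M libraries. The difference was -4.65 points (exact permutation p = 0.1, the smallest possible) and -0.773 points with equally many top-ranked islands (exact permutation p = 0.6). An island in all 3 forebrain and no hindbrain K27M library was found at 44 members, and in all 3 hindbrain and no forebrain K27M library at 101. These patterns made up 1.38% and 3.17% of members. They leave out members with an island in only some libraries of a culture, and their share over all regions was not counted.

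Islands that held a member carried a larger mean share of all island reads in K27M than in WT samples. In tumours this share of autosomal island reads was 37.5%, 34.3%, 30.8%, 43.4%, 48.1% and 49.2% in K27M tumours BT-1 to BT-6 and 25.4%, 26.1%, 31.8%, 25.1% and 29.2% in WT tumours BT-7 to BT-11. One K27M tumour, BT-3, lay within the WT range. The means were 40.5% ± 7.55 (SD, n = 6) in K27M, against 27.5% ± 2.90 (SD, n = 5) in WT tumours. In the 6 tumours outside the rule, where it was tested, the difference was 12.3 points (two-sided exact permutation p = 0.133). These islands made up 26.3% ± 7.95 of the covered length in K27M, against 20.0% ± 3.14 in WT tumours. Their median read density was 44.0 reads per kb ± 11.1 in K27M and 35.6 reads per kb ± 10.9 in WT tumours. Autosomal islands were fewer on average in K27M tumours (22105 ± 12115) than in WT tumours (24833 ± 6229), and a shorter list can raise such a share. With equally many top-ranked islands the difference over all tumours was 12.1 points in place of 13.0.

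In hindbrain neurospheres the share was 60.2%, 61.0% and 58.3% in K27M libraries and 38.0%, 38.8% and 37.8% in WT libraries. The groups did not overlap and differed by 21.6 points (exact permutation p = 0.1, the smallest possible). With equally many top-ranked islands the difference was 14.5 points. Member islands made up 34.7% ± 1.72 of the covered length in K27M, against 21.4% ± 0.472 in WT libraries, and their median read density was 47.0 reads per kb ± 2.52 in K27M and 41.9 reads per kb ± 2.35 in WT libraries (SD, n = 3 each). Forebrain K27M libraries lay at 59.7% to 60.6%. The difference between genotypes in hindbrain cells was 9.37 points larger than in the tumours outside the rule (exact permutation within each system, p = 0.447). That permutation, too, assumes no genotype effect in either system and does not test whether the effects were equal. These shares were measured after the data were seen.

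**Figure D5:**
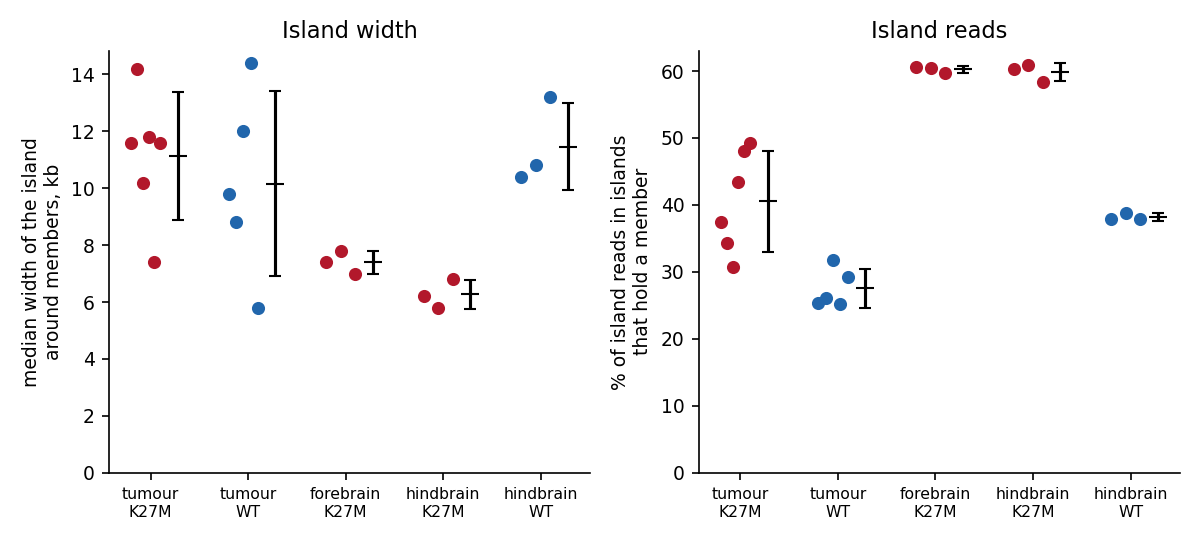
Left, median width in kb of the H3K27me3 island around members in each library. Right, percent of autosomal island reads in islands that hold a member. Points are libraries and bars are mean ± SD. Island width separates K27M from WT in hindbrain cells and not in tumours, and the read share averages 40.5% in K27M against 27.5% in WT tumours and 59.8% in K27M against 38.2% in WT hindbrain cells.

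Reads inside islands were then compared region by region, over autosomal regions called in every library of a comparison, with edgeR's quasi-likelihood test and Benjamini-Hochberg adjustment. The tumour comparison includes the 5 tumours of the rule. In tumours 3027 regions were tested and 1844 of them held 2475 of the members. Of these 1844, 176 rose (9.54%) and 73 fell (3.96%) in K27M tumours at an adjusted p under 0.05 by edgeR. The background over all regions was 7.43% higher, 5.35% lower and 12.8% in either direction. Among the 1183 regions without a member 49 rose and 89 fell. The 249 called member regions became 152 without BT-6, 145 over regions called in all but 1 library and 400 by DESeq2. The median log2 fold was 0.02 in member regions and -0.10 over all regions. Without composition factors the median over all regions moved to -0.30, and 130 member regions rose and 179 fell, so the majority direction depends on the scaling. Member regions lay 0.12 above the median of all regions on the log2 scale under both scalings. Scaling moves all regions nearly alike, so this agreement is no separate check. A region can be called in every library and still differ in called length, so a fall can also reflect a shorter stretch called as island.

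By the H3K27ac of their members, tumour regions rose in the following shares, whose differences were not tested. Of 273 member regions that held a member with H3K27ac in all 11 tumours, 55 rose (20.1%) and 6 fell (2.20%). Where H3K27ac reached 1 to 10 tumours at most, 74 of 1066 rose (6.94%) and 46 fell (4.32%). Where members had no H3K27ac, 47 of 505 rose (9.31%) and 21 fell (4.16%). The median log2 fold was 0.43 in the first group, -0.01 in the second and -0.06 in the third. The median region width was 38.4, 30.7 and 28.6 kb in these groups.

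The largest rise in tumours was at chr16:91156001-91248600, a region of 92.6 kb with 2 members, both with H3K27ac in all 11 tumours. Island reads there were at a lowest of 605, a median of 941 and a highest of 1325 CPM (reads scaled to a common total over the regions tested) in K27M tumours, and at 125, 18.2, 129, 141 and 388 CPM in WT tumours BT-7 to BT-11. The groups did not overlap. The log2 fold was 2.54 ± 0.54 (SE), with an adjusted p of 0.00824 by edgeR. Called length was 56.2 to 92.4 kb in K27M, against 3.40 to 22.0 kb in WT tumours, so islands there were also longer in K27M. At chr6:53742801-53783200, which held 1 member with H3K27ac in all 11 tumours, reads averaged 218 CPM ± 53.5 in K27M (SD, n = 6), against 45.5 CPM ± 16.2 in WT tumours (SD, n = 5), which edgeR put at a log2 fold of 2.252 ± 0.30 with an adjusted p of 0.000534. At chr4:99220601-99383400, whose member had H3K27ac in 1 tumour, they averaged 2123 CPM ± 1338 in K27M (SD, n = 6), against 378 CPM ± 193 in WT tumours (SD, n = 5). The next 2 rises, at chr8:113865401-113952600 and chr2:156419401-156534400, had log2 folds of 2.10 and 2.05. Each held 1 member with H3K27ac in all 11 tumours. The chromosome 2 region missed the threshold without BT-7 (edgeR adjusted p = 0.0588) and in the fit over regions called in all but 1 library (edgeR adjusted p = 0.0652).

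The largest fall in tumours was at chr5:116886601-117055200, with log2 fold -2.35 ± 0.52 (SE) and adjusted p = 0.00999 by edgeR. Reads there averaged 295 CPM ± 115 in K27M (SD, n = 6), against 1508 CPM ± 1469 in WT tumours (SD, n = 5), and the groups overlapped. At chr3:121580601-121660200 they averaged 97.1 CPM ± 53.7 in K27M, against 409 CPM ± 174 in WT tumours without overlap. The falls at chr15:67000401-67044000, chr13:72382601-72448600 and chr13:101262001-101351000 had log2 folds of -2.07, -2.0 and -1.87. With sex as a covariate the chromosome 15 fall missed the threshold (edgeR adjusted p = 0.0972). The members in these 5 regions had H3K27ac in 1 to 10 tumours, and none had it in all 11.

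In hindbrain neurospheres 3265 regions were tested, and 1425 of them held 1830 members. Of the 1425, 496 rose (34.8%) and 351 fell (24.6%) in K27M by edgeR, against a background of 26.9% higher, 29% lower and 56% in either direction over all regions. Among the 1840 regions without a member 383 rose and 597 fell. Regions that lacked an island in any library were not tested, so a full loss of islands is not among the falls. Without composition factors the median log2 fold over all regions was -1.0 in place of -0.11, and 229 member regions rose and 876 fell. No spike-in scale was used here, so the direction in absolute terms was not measured. Relative to the median of all regions, member regions lay 0.17 higher on the log2 scale under both scalings, a gap that scaling leaves nearly unchanged. The median called length of a member region was 6.40 to 7.40 kb in K27M, against 14.6 to 17.4 kb in WT libraries.

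Rises in hindbrain K27M cells were large at a few multi-member regions. The largest was at chr2:147006601-147029000, with 2 members acetylated in all 11 tumours, where reads were 1402, 1739 and 1561 CPM in K27M and 8.48, 60.8 and 124 CPM in WT libraries, with log2 fold 4.60 ± 0.83 (SE) and adjusted p = 0.00312 by edgeR. At chr9:91238801-91321400, with 3 members, reads were 9420, 10300 and 5126 CPM in K27M and 914, 1014 and 788 CPM in WT libraries, with log2 fold 3.19 ± 0.27 (SE) and adjusted p = 0.0001 by edgeR. Called length was close in both, at 79.0 to 80.8 kb in K27M, against 75.6 to 79.8 kb in WT, so a stretch of like length carried more CPM. At chr14:122845401-122901600, with 4 members, reads were 6245, 6406 and 2740 CPM in K27M and 437, 699 and 499 CPM in WT libraries, with log2 fold 3.23 ± 0.36 (SE) and adjusted p = 0.000359 by edgeR. In the chromosome 9 and chromosome 14 regions the library of experiment 3 was lowest in K27M and still above all WT libraries. The other rises named by rank, at chr8:48492001-48499000 (log2 fold 3.30) and chr18:15218001-15230600 (log2 fold 2.98), held 1 member each.

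The 5 largest falls in hindbrain K27M cells were at regions with 1 member each, and called length was shorter in K27M at all 5. At chr6:49165001-49183800 reads were 48.0, 44.1 and 48.0 CPM in K27M and 455, 525 and 502 CPM in WT libraries, with log2 fold -3.40 ± 0.13 (SE) and adjusted p = 3.06e-05 by edgeR. Called length there was 6 to 7 kb in K27M, against 16.6 to 18.6 kb in WT libraries. At chr2:28587401-28630000 reads were 16.1, 18.1 and 16.4 CPM in K27M and 164, 180 and 198 CPM in WT libraries, and called length was 1.60 to 3.20 kb in K27M, against 36.4 to 42.6 kb in WT. The falls at chr11:84407201-84484400, chr4:154386001-154438200 and chr7:53905001-53931800 had log2 folds of -3.08, -3.04 and -2.96. Members of 3 of the 5 regions, on chromosomes 2, 4 and 7, had H3K27ac in no tumour.

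Between forebrain and hindbrain K27M cells, 2584 regions were tested and 1209 held 1492 members. Of these 1209, 166 were higher (13.7%) and 215 lower (17.8%) in forebrain by edgeR, against a background of 17.5% higher, 18.9% lower and 36.3% in either direction over all regions. Member regions therefore did not exceed the background in either direction. Single regions differed widely. At chr7:77459001-77525800, with 6 members, reads were 8533, 8814 and 8389 CPM in forebrain and 624.9, 444 and 368 CPM in hindbrain libraries, with log2 fold 4.16 ± 0.20 (SE) and adjusted p = 1.52e-05 by edgeR. At chr13:78296801-78357400, with 3 members, they were 4964, 4572 and 3761 CPM in forebrain and 74.2, 51.2 and 101.3 CPM in hindbrain libraries, with log2 fold 5.87 ± 0.27 (SE) and adjusted p = 1.45e-05 by edgeR. Both regions had H3K27ac in all 11 tumours at 2 of their members.

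The reverse was found at chr2:38175801-38231200, with 2 members, where reads were 214, 153 and 128 CPM in forebrain and 6264, 6940 and 5972 CPM in hindbrain libraries. The log2 fold was -5.27 ± 0.20 (SE; edgeR adjusted p = 8.26e-06). The other named differences had log2 folds of 6.12 at chr8:94311601-94338200, 4.40 at chr1:191986601-192004000 and 4.22 at chr3:86328401-86383600. On the lower side they were -3.53 at chr1:14284001-14306600, -3.44 at chr4:84180801-84200000, -2.95 at chr9:37256801-37271400 and -2.51 at chr2:56948401-56980000. The values of the 3 libraries on each side did not overlap in any of these 10 regions.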

How the data were processed

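Per the labels' protocols, samples were spiked with Drosophila S2 chromatin, and no spike-in factor was used here. Per the submitters' processing notes, SICER 1.1, MACS2, bedtools 2.25.0, BWA 0.7.12, R 2.14.0, SAMtools and Picard were used on build mm9, and their roles are not stated. Each list came from 1 sample. The 20 deposited H3K27me3 lists give the count of reads per island, and the file names give 200 bp windows with gaps of 600 bp. The 11 H3K27ac and 5 H3K4me3 lists are in narrowPeak layout. The deposited columns are -log10 q-value, -log10 p-value, fold enrichment (a ratio) and score. They served here for ranking and filtering inside single lists. Input DNA of 23 samples was not analysed here.

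The members, lists and comparisons were chosen with earlier results of these data known. Single values were compared by two-sided exact permutation tests over samples. Island reads were tested with edgeR 4.0.16 in R 4.3.3 (TMM, adjusted p under 0.05), the SE being derived from the F statistic, with DESeq2 1.42.0 as an alternative. The edgeR step was tested on simulated data. Other steps ran in Python 3.11.15 with SciPy 1.17.1, pandas 2.3.3, matplotlib 3.10.9 and numpy 2.4.6. Regions were named by rank: the 5 widest and narrowest members, those under the widest islands, the largest loci and 5 regions per direction past the edgeR threshold. The gene lists could not be applied, since the annotation was of another build, and no sequences are printed. The labels name 1 experiment for several neurosphere groups, which pairs those libraries, and the fits reported carry no block for it. Correlations of their deviations were 0.10, 0.06 and 0.13 for K27M with WT hindbrain, and for forebrain with hindbrain K27M they were 0.19, 0.17 and 0.16.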

Additional observations from a re-analysis of the deposited data

Results flagged for a closer look

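The difference between genotypes in the width of the island around members had opposite signs in hindbrain neurospheres and tumours, but the tumour sign was not stable. On the log2 scale K27M minus WT was -0.87 in hindbrain neurospheres and 0.17 in tumours, a difference of -1.04 for hindbrain minus tumours. The tumour value includes the 5 tumours whose islands the rule used. It was 0.029 with equally many top-ranked islands and -0.016 without BT-11. In the other 6 tumours it was 0.50 (exact permutation p = 0.2), and 0.20 without BT-11. With those 6 the hindbrain minus tumour difference was -1.36, with p = 0.01 in a two-sided exact permutation of genotype labels within each system. That permutation assumes no genotype effect in either system, so it cannot show that the effects differed. Over all autosomal islands the hindbrain medians were also lower in K27M, at 3.6 to 4.4 kb, against 6.2 to 6.4 kb in WT libraries. The labels give the Trp53 and PDGFRα alleles for the tumours alone, and tumours and cultures also differ in age and culture. These cannot be told apart here. Of 36 groups of 4 to 10 samples, none held a sample far from the others by Dixon's criterion.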

How the results depend on the processing

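The values over all tumours include those of the rule. There the share of acetylated members under islands differed by 22.0 points, a size that permuting genotype within sex cannot change. This difference between genotypes was 19.2 among members at least 50% under islands and 19.6 with widths of 2000 to 5000 bp. It was 44.1 in the tumours outside the rule and 14.6 to 26.9 without single tumours. The acetylated minus unacetylated difference was 19.3 with widths of 2000 to 5000 bp and 41.5 outside the rule, and the share of tumour island reads differed by 12.3 outside the rule. The unacetylated minus acetylated difference in hindbrain libraries ranged from 23.2 to 25.7 without single libraries, with p = 0.0625 in exact permutations of 5, the smallest possible. Some genotype differences within the spread changed sign. The H3K27ac share ranged from -3.37 to 2.30 points without single tumours. The difference between classes was 2.00 with at least 50% of a region acetylated and ranged from -3.95 to 0.375 without single tumours. The log2 island width in tumours ranged from -0.016 to 0.31, lowest without BT-11. Called member regions in tumours numbered 249, with 400 by DESeq2, 145 with regions called in all but 1 library, and 152 to 289 without single tumours, the lowest without BT-6. The cause was not tested. With the replicate block for paired libraries, 802 hindbrain and 389 forebrain member regions were called, against 847 and 381, and none of the regions named lost its call. Region reads exist only where islands were called, so depth limits what counts as lost.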
